A study of Homo sapiens with 6 samples.

Results

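The histone cluster genes are the 74 genes, of 27968 listed in each gene table, whose symbol begins with HIST1H, HIST2H, HIST3H or HIST4H. They hold 6 linker histone H1 genes, 17 H2A, 20 H2B, 14 H3 and 15 H4 genes, and 2 genes with PS in their symbol, which marks a pseudogene in the older naming. Their RNA was measured in A549 and H23, both established human cell lines derived from lung adenocarcinoma. The sequencing covered 3 separate untreated cultures per line, grown to near confluence, A549 in DMEM and H23 in RPMI 1640, both with fetal bovine serum. For all 6 libraries the labels name 1 kit for stranded total RNA, with ribosomal RNA taken out, and give no genotype, passage or batch. Histone mRNAs and other RNAs without a poly(A) tail, which such a kit keeps, were nearly missing from the H23 libraries, with values given below. Those values are at odds with the label, and how the libraries were made was not tested. How the RNA of each line was selected cannot be told apart from the line, and every histone difference here is one between libraries of unlike RNA make-up. Medium and line changed together, so their effects cannot be told apart.

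Histones package DNA: H2A, H2B, H3 and H4 form the core of the nucleosome, and H1 binds the DNA between nucleosomes. Most of the clustered genes are replication-dependent, which means that they are transcribed mainly in S phase, when new chromatin is built. Their mRNAs lack introns and end in a conserved stem-loop, bound by SLBP, in place of the poly(A) tail of other mRNAs. Some of these genes can also make a longer transcript that runs past the stem-loop and is polyadenylated.

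The libraries held 23399562 to 25348083 expected counts in A549 and 29395795 to 42421642 in H23. Among the H23 libraries replicate 1 stood apart: the chi-square per gene of its counts was 106 against replicate 2 and 136 against replicate 3, and 5.54 between those 2 libraries. The A549 libraries differed from each other by 3.79 to 4.0. All 5 epithelial markers were detected in both lines, with a summed level of 3981 to 4130 TPM (RSEM's level per transcript length, scaled to a fixed library total) in H23 and 3333 to 3371 TPM in A549, most of it from KRT8 and KRT18. They were not alike: KRT19 was at 5.65 TPM in H23 and 50.9 TPM in A549, CDH1 at 13.1 and 3.29 TPM, and EPCAM at 6.82 and 2.49 TPM. The summed level of 7 markers of blood, endothelial and connective tissue cells was 5.09 to 8.40 TPM in H23 and 1.73 to 2.21 TPM in A549, with PTPRC, CD3E, PECAM1 and HBB at or near 0. Most of that sum was COL1A1, at 6.10 TPM in H23 and 1.52 TPM in A549, and VWF had 10, 30 and 29 counts in H23 and none in A549. Their part in the histone differences was not tested. NKX2-1, a lung lineage factor, was at 2.18 TPM in H23 and listed at 0 in A549.

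The histone cluster genes were far higher in the A549 libraries. Their summed level was 41351, 41598 and 43241 TPM in the 3 A549 libraries and 352, 516 and 518 TPM in the 3 H23 libraries. The lines did not overlap, and H23 replicate 1 was the lowest of all. As a share of all expected counts, the genes took 1.18 to 1.19% in A549 and 0.0134 to 0.0185% in H23. A mean of at least 100 TPM was reached by 54 of the 74 genes in A549 and by 1 in H23, and 17 genes reached 1000 TPM in A549.

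Of the 74 genes, 62 had enough counts to be tested. A call here is an adjusted p (Benjamini-Hochberg) under 0.05 in edgeR's quasi-likelihood test, which 77.2% of the 15426 genes tested in the whole table met in either direction. Of the 62 genes, 57 were higher in A549, where 37.6% of all tested genes were. The test placed 4 higher in H23, where 39.6% of all tested genes were, and made no call for 1. The 62 include pairs of identical copies with the same values, counted here as separate genes. With such copies added together, 59 histone genes were in the fit. The 57 genes had no overlap between the lines, a pattern that 40.7% of all tested genes shared in that direction. The 4 genes did not overlap in the other direction, as 41.4% of all tested genes did not. A fold of at least 8 on the log2 scale was found for 42 of the 62, compared with 1.78% of all tested genes, and for 1.24% of all tested genes, none of them a histone gene, in the direction of H23. The median log2 fold of A549 over H23 was 9.57 over the 62 genes and -0.03 over all tested genes. A gene that passed the filter only through its A549 counts had to differ, so these counts describe the 62 genes and lend no support beyond their own tests. The 12 untested genes had few counts in both lines. Among them HIST1H2APS1 and HIST1H4G were at 0 in all 6 libraries, and HIST1H2AA, HIST1H2BA, HIST1H1T and HIST3H3, which encode testis-associated histones, were at 0 in every H23 library.

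**Figure D1:**
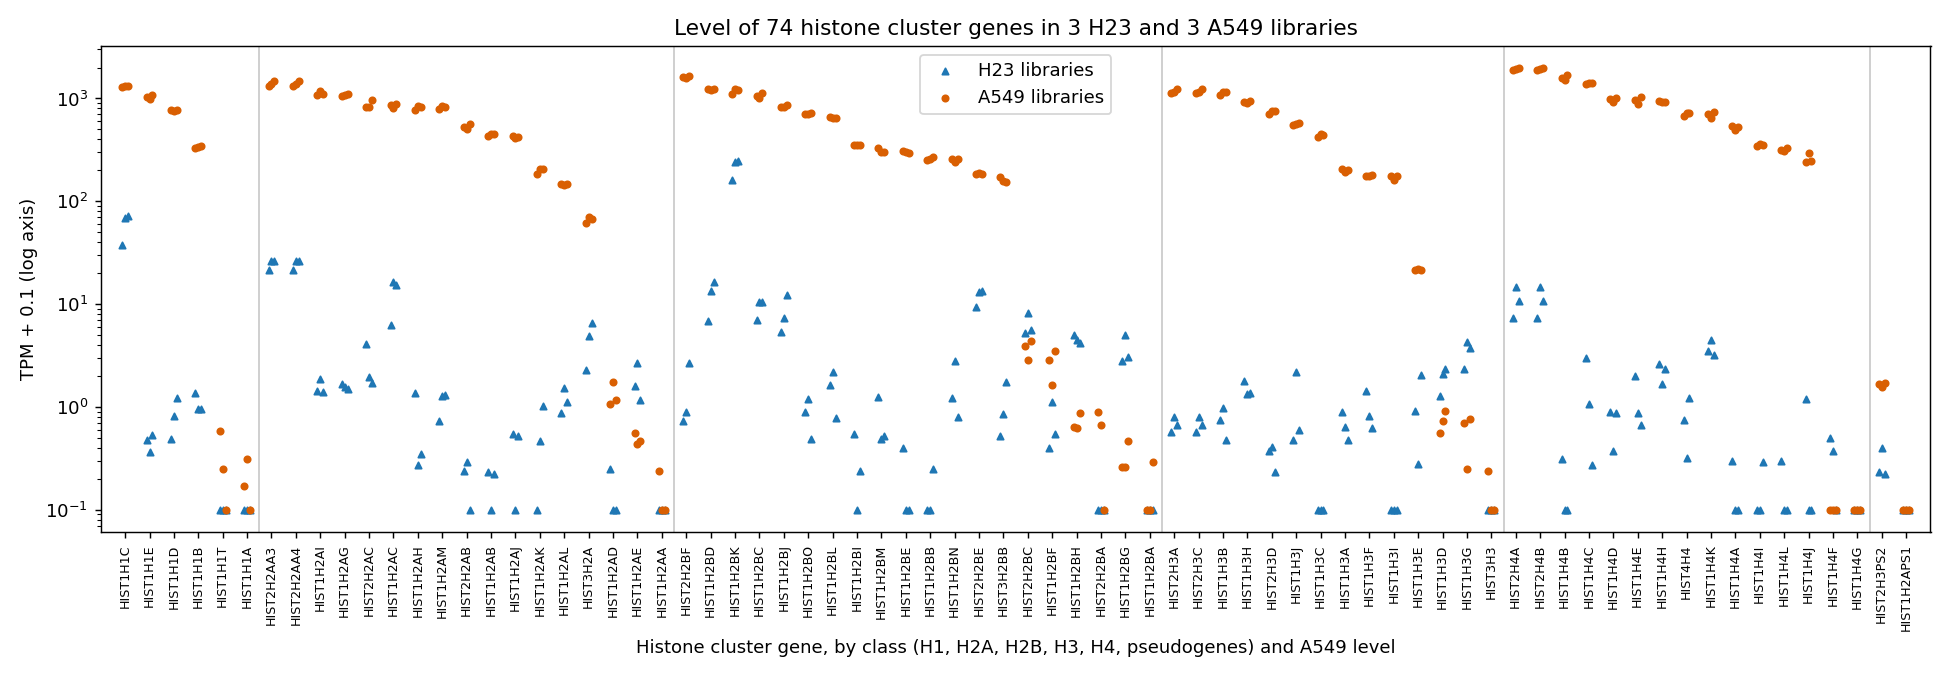
Level of each of the 74 histone cluster genes in 3 A549 libraries (circles) and 3 H23 libraries (triangles), as TPM + 0.1 on a log axis, ordered by class and by A549 level. In A549 54 genes lie at 100 TPM or more, while HIST1H2BK is the only gene above 100 TPM in H23.

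**Figure D2:**
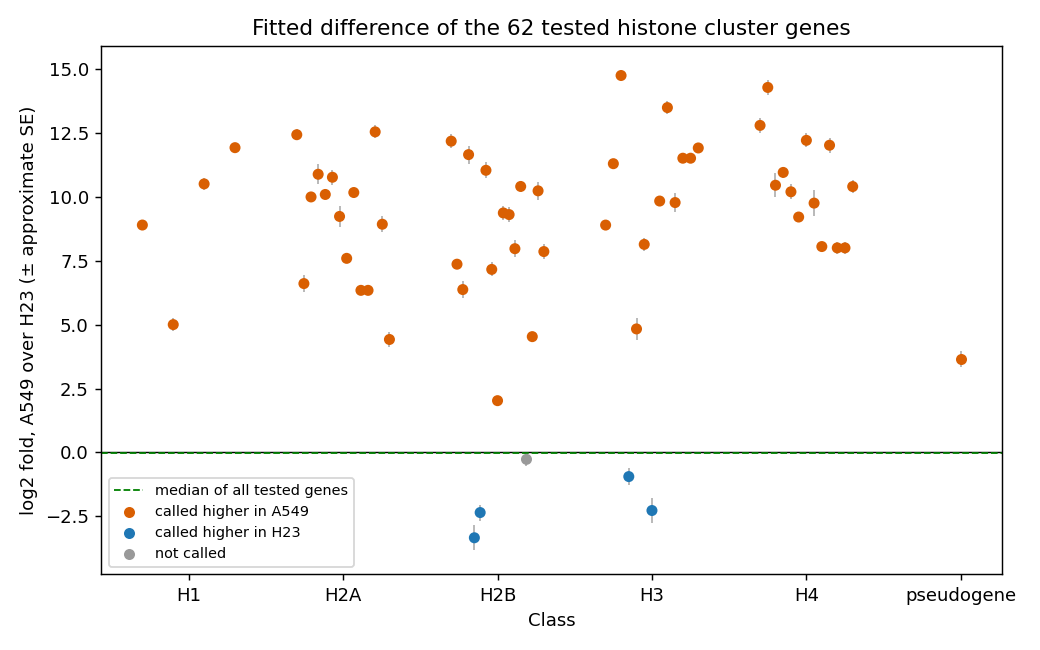
Fitted log2 fold of A549 over H23 for the 62 tested genes by class, with bars for the approximate standard error and the median of all tested genes as a dashed line. The 57 genes called higher in A549 lie between 2.02 and 14.76, and the 4 called higher in H23 between -3.35 and -0.95.

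The lines also divided this RNA differently among the classes. Per transcript length, in A549 the H4 genes held the most, 12591 ± 340 TPM (SD, n = 3), followed by H2A with 10184 ± 351 TPM, H2B with 9127 ± 146 TPM, H3 with 6720 ± 193 TPM and H1 with 3440 ± 66.4 TPM. No 2 of these TPM ranges over the libraries overlapped. In CPM, which counts reads without regard to length, the A549 order was another: H2A had 2969 to 3012, H2B 2766 to 2870, H4 2305 to 2418, and H3 (1896 to 1906) and H1 (1854 to 1914) overlapped. In H23 the H2B genes held 279 ± 60.0 TPM, which was 60.4% of the histone total, against 21.7% in A549. H4 stood at 7.02% of the histone total in H23 and 29.9% in A549, and H3 at 2.34 to 2.92% and 15.8 to 16.1% over the libraries. A single gene, HIST1H2BK, gave 46.8% of the histone TPM in H23, and the first 10 genes gave 84.9%. In A549 the first 10 genes gave 35.7%, so the level was spread over many genes. Across the 74 genes, Spearman's rho between the mean TPM of the lines was 0.474, a description over genes that share the same 6 libraries.

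Replicates of A549 were close to each other. Over the 54 genes at 100 TPM or more in A549, the SD was 0.224 to 11.1% of the mean, with a median of 3.54%. In H23 the 12 genes at a mean of 5 TPM or more had SDs of 11.4 to 44.6% of the mean, and all 12 were lowest in replicate 1.

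Among the linker histones, 4 of 6 genes were tested and all 4 were higher in A549. HIST1H1C, the H1 gene with the highest level in both lines, was at 1299, 1314 and 1322 TPM in A549 and at 37.4, 68.9 and 72.3 TPM in H23. Its log2 fold was 5.0 ± 0.24 (approximate SE, here and below; adjusted p = 3.42e-06, edgeR). The lines were far apart, with H23 replicate 1 the lowest. HIST1H1E, another somatic H1 gene, was at 978 to 1077 TPM in A549 and at 0.26 to 0.43 TPM in H23, a log2 fold of 11.93 ± 0.15. HIST1H1A and HIST1H1T stayed at or below 0.48 TPM in every library.

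All 14 tested H2A genes were higher in A549, with a median log2 fold of 9.62. HIST2H2AA3 and HIST2H2AA4 encode the same H2A protein and had identical values in the tables, 1332, 1388 and 1481 TPM in A549 and 21.4, 26.3 and 26.2 TPM in H23. They led the class in both lines, with a log2 fold of 6.34 ± 0.10 (adjusted p = 9.38e-08, edgeR). HIST2H2AB and HIST1H2AB were among the largest differences. HIST2H2AB had 531, 509 and 563 TPM in A549 and 0.14, 0.19 and 0 TPM in H23. Its 2 counts over the H23 libraries give a ratio of 7375, with a 95% counting interval of 2041 to 60903. HIST1H2AB also had 2 counts in H23, and a ratio of 6818 with an interval of 1887 to 56306. These intervals cover counting error only.

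Of 17 tested H2B genes, 14 were higher in A549, 2 were higher in H23 and 1 was not called. HIST2H2BF led the class in A549 with 1610, 1571 and 1650 TPM, and had 0.62, 0.80 and 2.55 TPM in H23, a log2 fold of 10.24 ± 0.36 (adjusted p = 9.89e-07, edgeR), or 10.84 without H23 replicate 3. HIST1H2BK was the most abundant histone gene of H23, with 163, 240 and 247 TPM there and 1096, 1250 and 1200 TPM in A549. Its log2 fold of 2.02 ± 0.14 (adjusted p = 1.64e-05, edgeR) was the smallest among the 57 genes higher in A549. HIST1H2BD was at 1232, 1208 and 1238 TPM in A549 and at 6.74, 13.3 and 16.3 TPM in H23, a log2 fold of 6.38 ± 0.34. HIST2H2BE, listed with a single transcript, was at 186 TPM in A549 and 11.8 ± 2.28 TPM in H23. In CPM it had 357 in A549 and 15.4 in H23, where HIST1H2BK had 371 and 91.3. Its TPM thus rests on the length of the transcript listed. HIST2H2BC, a transcribed pseudogene in RefSeq, was the tested gene with no call: it had 3.77, 2.73 and 4.27 TPM in A549 and 5.13, 8.17 and 5.46 TPM in H23, with a log2 fold of -0.27 ± 0.26 (adjusted p = 0.362, edgeR).

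Of 13 tested H3 genes, 11 were higher in A549 and 2 in H23. HIST2H3A and HIST2H3C, identical copies that encode the same H3 protein, led the class in A549 with 1134, 1146 and 1237 TPM each, and had 0.47, 0.70 and 0.57 TPM in H23. Their log2 fold was 11.52 ± 0.13 (adjusted p = 4.04e-08, edgeR). HIST1H3C had no count in any H23 library and 419, 451 and 440 TPM in A549. Against a floor of 3 counts over the H23 libraries it was at least 4194-fold higher in A549. HIST1H3I, also at 0 counts in H23, was at least 1753-fold higher, with 177, 162 and 177 TPM in A549.

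All 13 tested H4 genes were higher in A549, with the largest class median, a log2 fold of 10.41. HIST2H4A and HIST2H4B, identical copies with the same values, were listed highest among the histone genes of A549, at 1902, 1936 and 1980 TPM each. Their H23 values were 7.15, 14.6 and 10.6 TPM, also the highest of the class there. HIST1H4B had 1567, 1512 and 1706 TPM in A549 and a single count in H23, a ratio of 29126 with a 95% counting interval of 5227 to 1150480. HIST1H4A, likewise with 1 H23 count, had a ratio of 10396 with an interval of 1865 to 410683. Both counts came from H23 replicate 1, and without that library both genes were at 0 in H23. HIST4H4, the only gene of its cluster, was at 705 ± 27.5 TPM in A549 and 0.660 ± 0.445 TPM in H23.

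HIST1H2BG, HIST1H2BH, HIST1H3G and HIST1H3D were higher in H23, and were picked out after their values had been seen. HIST1H2BG had 19, 25 and 21 counts in H23 and 1, 1 and 2 in A549, which is 3.50 ± 1.18 and 0.227 ± 0.115 TPM. Its log2 fold was -3.35 ± 0.49 (adjusted p = 6.26e-04, edgeR). The levels of all 4 were low in both lines. HIST1H2BH had 32, 21 and 27 counts in H23 and 3, 3 and 4 in A549, a log2 fold of -2.36 ± 0.31 (adjusted p = 3.81e-04, edgeR). HIST1H3G had 17, 23 and 28 counts in H23 and 4, 1 and 4 in A549, a log2 fold of -2.28 ± 0.48 (adjusted p = 3.73e-03, edgeR). HIST1H3D, at 1.80 ± 0.558 TPM in H23 and 0.633 ± 0.185 TPM in A549, had a log2 fold of -0.95 ± 0.32 (adjusted p = 0.0308, edgeR). That last call was lost with DESeq2 (adjusted p = 0.0649) and when H23 replicate 2 or 3 or A549 replicate 1 or 2 was left out (adjusted p = 0.0721, 0.0945, 0.114 and 0.0907). Over all alternatives its adjusted p ran from 2.77e-03 to 0.114. These low genes share sequence with close paralogs, and how reads were divided among paralogs carries an error that the test leaves out.

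HIST1H2BD and HIST1H2BK are the members listed with a short and a long transcript at levels that allow a comparison. As modelled in GENCODE, the short transcript of HIST1H2BD ends soon after the stem-loop, and the long one has another end, with a polyadenylation signal. The sites are shown because the stem-loop is in the short HIST1H2BD form and has no match in the long one. The models of both forms hold AATAAA, the letters of a polyadenylation signal, near their end. In the short form these letters lie after the stem-loop, and whether that form is polyadenylated was not tested. The sites of HIST2H2BE, a long transcript that holds both features, and HIST1H4B are shown beside them. They come from GENCODE 29 transcripts on GRCh38, in DNA letters, with the 16-base stem-loop or the 6-base polyadenylation signal in capitals.
HIST1H2BD short form, stem-loop: tcccaaaGGCTCTTTTAAGAGCCacgcatg
HIST1H2BD short form, signal near the end: gcatgttttcAATAAAtgagttgtaa
HIST1H2BD long form, signal near the end: agttataattAATAAAatctgcggag
HIST2H2BE, stem-loop: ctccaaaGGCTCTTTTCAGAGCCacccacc
HIST2H2BE, signal near the end: tattgttattAATAAAgttaccaatt
HIST1H4B, stem-loop: ttccaatGGCCCTTTTCAGGGCCgcccact
The GENCODE model of the short HIST1H2BD form runs 39 bases past the stem-loop, and that of HIST2H2BE runs 1729 bases past it. The GENCODE model of the long HIST1H2BD form has no match to the stem-loop pattern, and its signal ends 19 bases before the transcript does.

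For HIST1H2BK nearly all of the gene's transcripts were of 1 form in the H23 libraries and of the other form in the A549 libraries. The 839-base transcript (NM_080593) was 99.1, 98.2 and 98.3% of the gene's transcripts in H23 and 5.43, 4.86 and 5.19% in A549. The 498-base transcript (NM_001312653) made up the rest, 0.89 to 1.76% in H23 and 94.6 to 95.1% in A549. The shares did not overlap, and the gene was called in the test of transcript usage (adjusted p = 3.88e-08, edgeR's diffSpliceDGE), as were 25.8% of the 7539 genes in that test. The levels of the transcripts moved in opposite directions. The short form had 1036, 1189 and 1138 TPM in A549 and 1.44, 4.21 and 4.10 TPM in H23, a log2 fold of 8.94 ± 0.40 (adjusted p = 8.37e-05, edgeR). The long form had 59.5, 60.8 and 62.4 TPM in A549 and 161, 235 and 242 TPM in H23, a log2 fold of -1.28 ± 0.14 (adjusted p = 1.12e-03, edgeR). Of 32361 transcripts tested one by one, 21.6% were higher in A549 and 22.8% in H23.

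HIST1H2BD showed the same change of form, from fewer H23 counts. The 487-base transcript (NM_021063) was 98.5, 98.5 and 98.5% of the gene's transcripts in A549 and 40.9, 21.3 and 19.5% in H23. The 813-base transcript (NM_138720) took 59.1, 78.7 and 80.5% in H23, lowest in replicate 1, and 1.46 to 1.55% in A549. The usage test gave an adjusted p of 1.61e-07 (edgeR's diffSpliceDGE). The short form rose from 2.92 ± 0.227 TPM in H23 to 1208 ± 16.4 TPM in A549, a log2 fold of 9.18 ± 0.09 (adjusted p = 2.74e-06, edgeR). The long form had 3.98, 10.4 and 13.1 TPM in H23 and 18.0, 18.7 and 18.2 TPM in A549, a log2 fold of 1.53 ± 0.42 (adjusted p = 0.0316, edgeR). That call was lost with limma on log2(TPM + 1) (adjusted p = 0.0577), without H23 replicate 2 (adjusted p = 0.0751) and without A549 replicate 1, 2 or 3 (adjusted p = 0.0866, 0.0918 and 0.0824), with 5.87e-03 to 0.0918 over all alternatives. The transcript fits were chosen after the data had been seen.

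**Figure D3:**
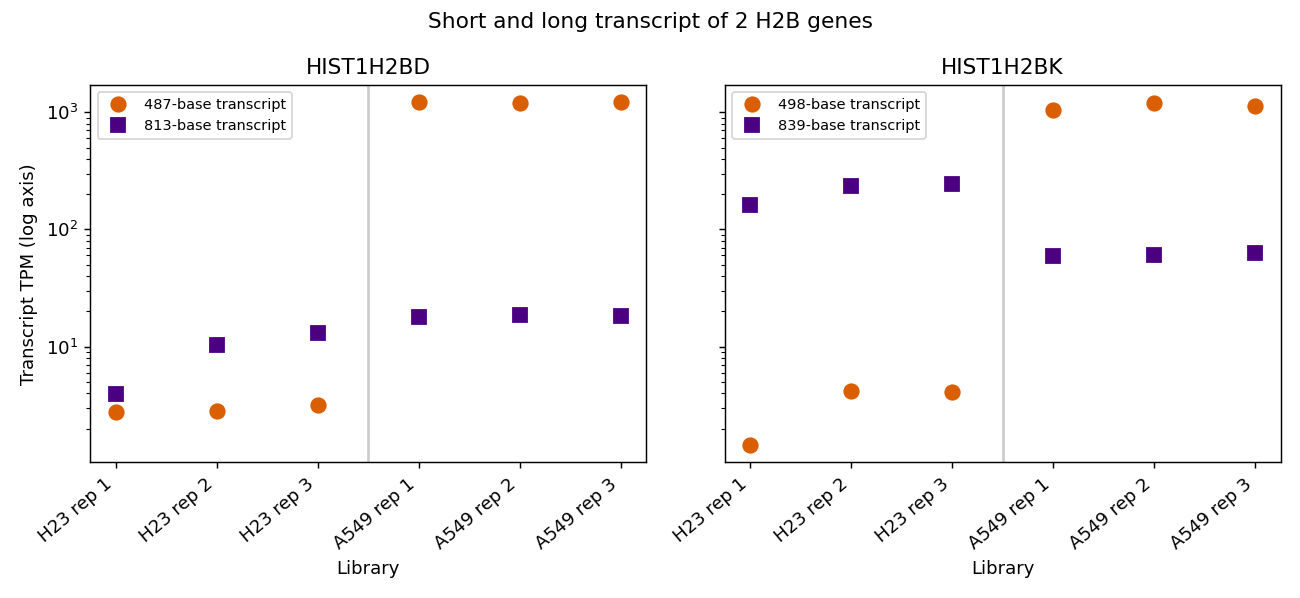
TPM of the short and the long transcript of HIST1H2BD (left) and HIST1H2BK (right) in each library, on a log axis, with circles for the short and squares for the long form. Both short forms exceed 1000 TPM in the 3 A549 libraries and stay under 5 TPM in the 3 H23 libraries, while the long form of HIST1H2BK is at 161 to 242 TPM in H23 and 59.5 to 62.4 TPM in A549.

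The other members with more than 1 transcript gave less to compare. HIST2H2BF has a 495-base and a 999-base transcript. In A549 the short one took 99.99 to 100% of the gene's transcripts, from 10913 to 11724 counts, and in H23 the shares were set by few counts and ran from 0 to 100%. HIST2H2AA3, HIST2H2AA4, HIST2H3A, HIST2H3C, HIST2H4A and HIST2H4B are each listed with a transcript and a second one of the same length and name with a suffix. Those entries are not forms of different length, and how RSEM divides reads between identical copies carries no information on form. HIST2H3A and HIST2H3C were called in the usage test (adjusted p = 7.37e-04, edgeR's diffSpliceDGE), with the division at 50% in H23 and at 10.6 to 16.5% for the first entry in A549. Of the 8 members in that test 4 were called, beside 25.8% of the 7539 genes in it. The 4 are these copies, which share the same values, HIST1H2BD and HIST1H2BK. Only HIST1H2BD and HIST1H2BK compare forms of different length.

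The transcripts of GENCODE 29 were searched over their whole length for the histone stem-loop pattern. It was present in 33 of the 74 genes. By transcript, it was in 48 of the 105 of these genes. Among all human transcripts it was in 178 of 206694, or 0.0861%, the 48 included. The letters were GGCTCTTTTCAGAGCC in 17 genes and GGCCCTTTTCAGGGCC in 5, and 4 further spellings covered the other 11. Many GENCODE models of these genes stop at the end of the coding sequence, so no match says only that the letters are not in the model. A model with a polyadenylation signal in its last 40 bases was found for 24 of the 74 genes. Those 24 had a median of 3.89 TPM in H23 and 928 TPM in A549, and the other 50 had 0.495 and 345 TPM. Of the 12 genes at 5 TPM or more in H23, 10 belonged to the 24. HIST1H2BK, the highest gene of H23, did not. Its only GENCODE model has 381 bases, while the transcripts measured have 498 and 839. The 24 include HIST1H4J, whose signal lies before the stem-loop, and HIST2H2AA3, whose model ends 35 bases past it. The grouping is thus one of models, and does not tell which genes had a polyadenylated form in these libraries.

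The promoters, taken as 250 bases before to 50 after the start site in RefSeq on GRCh38.p14, were available for 66 of the 74 genes. Letters were searched on both strands. The octamer ATTTGCAT, bound by the POU2F1 factor, was in 11 of 16 H2A promoters and 14 of 18 H2B promoters, in none of the H1, H3 or H4 promoters, and in 1.774% of 35116 promoters. Divergent H2A and H2B neighbours share much of this window, so these are not independent. CCAAT was in every H1, H2A, H2B and H3 promoter searched, in 3 of 13 H4 promoters and in 34.61% of all. TATAAA was in 44 of the 66 and in 11.53% of all. The H1 box AAACACAAA was in 3 of 6 H1 promoters and in 0.635% of all. Genes under 5 TPM in A549 held the octamer in 7 of 15 promoters and the rest in 18 of 51. The 120 bases before the start site are shown for 2 H2B genes high in A549, HIST1H2BK and HIST2H2BF, and 2 higher in H23, HIST1H2BG and HIST1H2BH, with these motifs in capitals (ATTGG is CCAAT on the other strand).
HIST1H2BK, chr6:27146856-27146975, minus strand: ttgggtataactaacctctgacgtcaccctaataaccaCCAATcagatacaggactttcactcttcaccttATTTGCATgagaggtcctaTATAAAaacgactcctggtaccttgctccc
HIST2H2BF, chr1:149812371-149812490, minus strand: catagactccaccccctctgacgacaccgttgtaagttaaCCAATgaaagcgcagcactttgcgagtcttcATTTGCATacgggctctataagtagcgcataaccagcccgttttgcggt
HIST1H2BG, chr6:26216689-26216808, minus strand: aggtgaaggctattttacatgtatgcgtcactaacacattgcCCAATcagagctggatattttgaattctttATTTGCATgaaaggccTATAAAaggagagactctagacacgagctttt
HIST1H2BH, chr6:26251494-26251613, plus strand: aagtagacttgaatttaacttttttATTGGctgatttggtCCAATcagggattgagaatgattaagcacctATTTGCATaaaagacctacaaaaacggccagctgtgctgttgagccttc
All 4 hold the octamer beginning 48 or 49 bases before the start and CCAAT beginning 78 to 82 bases before it. TATAAA was in HIST1H2BK and HIST1H2BG, that is, in 1 gene of each kind. The 4 promoters were chosen by hand, and other H2B promoters differed. In HIST1H2BC the octamer began 123 bases before the start, and HIST1H2BD had no octamer.

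Within the large HIST1 cluster on chromosome 6, the genes low in A549 lay near each other. In the order of the reference, 13 of the cluster's genes lie between HIST1H4D and HIST1H2BI, and 9 of these 13 were under 5 TPM in A549, compared with 5 of the other 43. The limits of that stretch were set after the values were seen, so the counts carry no test. All 4 genes higher in H23 lie in it. HIST1H3D is followed by HIST1H2AD and HIST1H2BF, HIST1H2BG by HIST1H2AE, and HIST1H2BH by HIST1H3G. HIST1H2AE was not tested, and had 1.49, 2.58 and 1.06 TPM in H23 and 0.45, 0.33 and 0.37 TPM in A549. The stretch also holds genes at high A549 levels, such as HIST1H1D at 765 ± 11.9 TPM. Over all 74 genes, none had a mean between 3.59 TPM (HIST2H2BC) and 21.5 TPM (HIST1H3E) in A549.

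**Figure D4:**
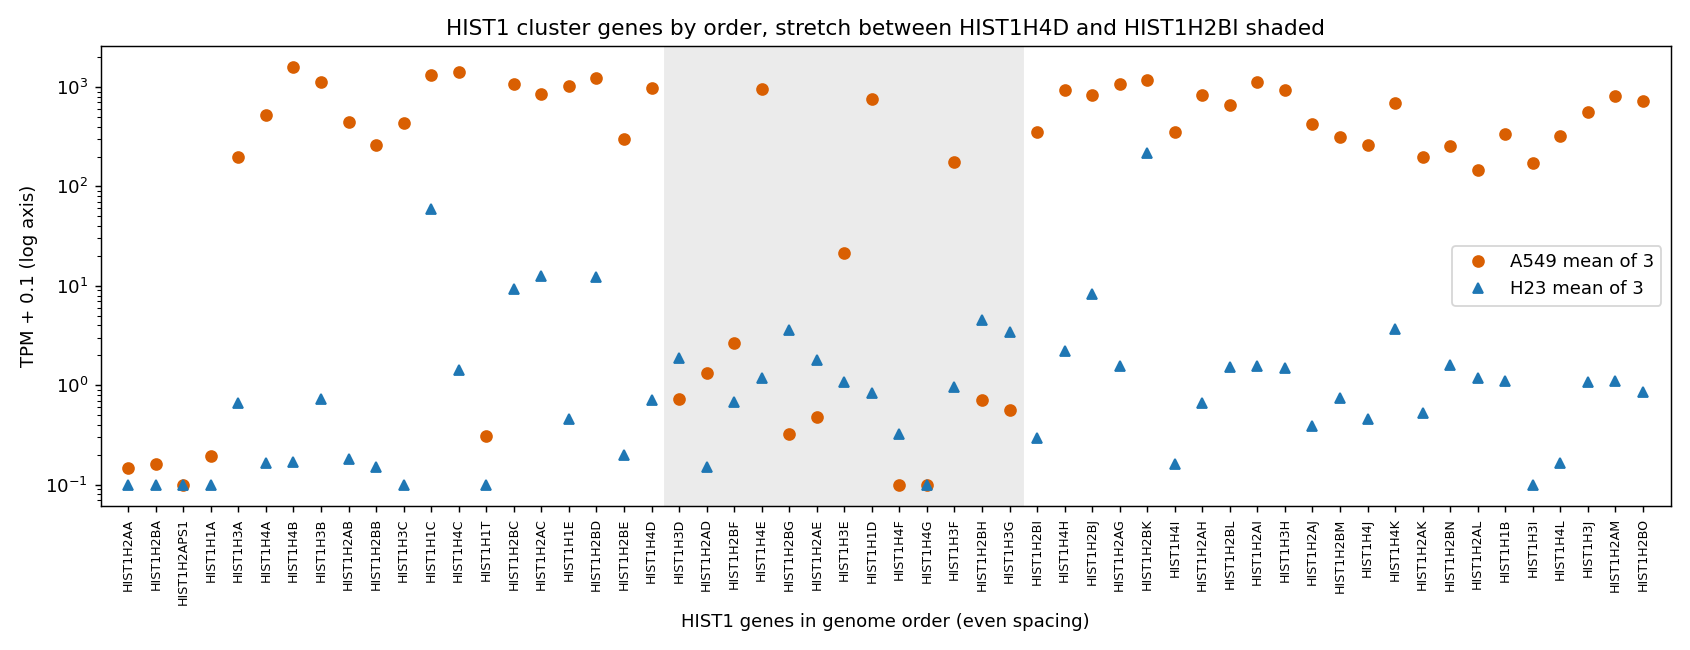
Mean TPM + 0.1 over 3 libraries of each HIST1 gene, on a log axis, in the order of the genes along the reference with even spacing, for A549 (circles) and H23 (triangles). In the shaded stretch 9 of 13 genes are under 5 TPM in A549, while 5 of the 43 genes outside it are.

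Other RNAs that lack a poly(A) tail were also far higher in the A549 libraries. Of 25 such RNAs listed, 17 are in the gene table and 11 of these had enough counts to be tested. All 11 were higher in A549, as were 37.6% of all tested genes, with a median log2 fold of 9.96. Several passed the filter only through their A549 counts, as SCARNA13 with no count in H23, so the count and the median describe them and lend no support. Their summed level was 181027 to 208845 TPM in A549. In the H23 libraries it was 31.06, 15.47 and 18.85 TPM, highest in replicate 1. RMRP, the RNA of RNase MRP, was at 118213 TPM in A549 and 4.10 TPM in H23, a log2 fold of 15.17 ± 0.42 (adjusted p = 4.36e-07, edgeR). RPPH1, the RNA of RNase P, was at 72433 and 2.33 TPM, a log2 fold of 15.32 ± 0.52 (adjusted p = 8.61e-07, edgeR). Without H23 replicate 1 these folds were 16.12 and 16.72. TERC, the telomerase RNA, had a log2 fold of 11.60 ± 0.24. These RNAs take up so much of the A549 TPM that they lower the TPM of every other gene there by the same share. RNA make-up thus changed with the line, and a difference in the RNA that was kept, in histone transcription and in the share of cells in S phase cannot be told apart here. Likewise fewer cells that express a gene and less RNA per cell cannot be told apart in bulk RNA.

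The counts for genes that act with the histone genes are to be read beside the 37.6% of all tested genes that were higher in A549 and the 39.6% that were higher in H23. Of 18 tested factors of histone mRNA synthesis and processing, 8 were higher in A549 and 8 in H23, with a median log2 fold of -0.31. SLBP, the stem-loop binding protein, was lower in A549, at 65.0 ± 0.833 CPM (normalised counts scaled to library size) compared with 119 ± 5.56 CPM in H23, a log2 fold of -0.87 ± 0.08 (adjusted p = 5.02e-05, edgeR). NPAT, the coactivator of histone transcription, was higher in A549 by a log2 fold of 2.17 ± 0.51 (adjusted p = 6.21e-03, edgeR), with H23 levels of 12.6, 3.41 and 3.51 CPM, highest in the H23 library that stood apart, and a log2 fold of 3.08 without it. CASP8AP2, which acts with NPAT at histone locus bodies, was higher by 2.64 ± 0.37. Its H23 levels were 11.9, 4.54 and 4.99 CPM, again highest in replicate 1, and its log2 fold ran from 1.68 to 3.22 over the alternatives. LSM10, of the U7 particle that cleaves histone pre-mRNA, was lower by a log2 fold of -2.25 ± 0.13.

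Of 24 tested S phase genes, 7 were higher in A549 and 12 in H23, with a median log2 fold of -0.33. TYMS, which makes thymidylate, was lower in A549, with 45.2 ± 2.05 CPM compared with 607 ± 25.5 CPM. RRM2, a subunit of ribonucleotide reductase, had 231 ± 6.34 CPM in A549 and 681 ± 20.2 CPM in H23. POLA1, a catalytic subunit of DNA polymerase alpha, was higher in A549, at 71.8 ± 0.472 CPM compared with 30.8 ± 4.57 CPM. Replication-independent histone variants mostly have polyadenylated mRNAs. Of 11 tested, 3 were higher in A549 and 7 in H23, with a median log2 fold of -0.42. H1F0, a linker histone of resting and differentiated cells, was lower in A549, with 79.9 ± 2.95 CPM compared with 487 ± 72.8 CPM, and H2AFJ was higher in A549 by a log2 fold of 1.60 ± 0.11. Of 20 tested histone chaperones, 3 were higher in A549 and 11 in H23, with a median log2 fold of -0.37. DAXX, a chaperone of the H3 variant H3.3, had a log2 fold of -1.68 ± 0.12, and its partner ATRX one of 3.06 ± 0.48. ATRX had 28.1, 8.96 and 8.43 CPM in H23, highest in replicate 1, without which its log2 fold was 3.86. The summed level of the processing factors overlapped between the lines in CPM, at 1172 to 1185 in A549 and 1181 to 1200 in H23. In TPM it was lower in A549. The lists of this paragraph were lower in A549 in CPM too, without overlap. The S phase genes summed to 3570 to 3695 CPM in A549 and 4803 to 5418 CPM in H23. The variants summed to 1684 to 1726 and 2444 to 2755 CPM, and the chaperones to 2691 to 2869 and 3358 to 3886 CPM.

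**Figure D5:**
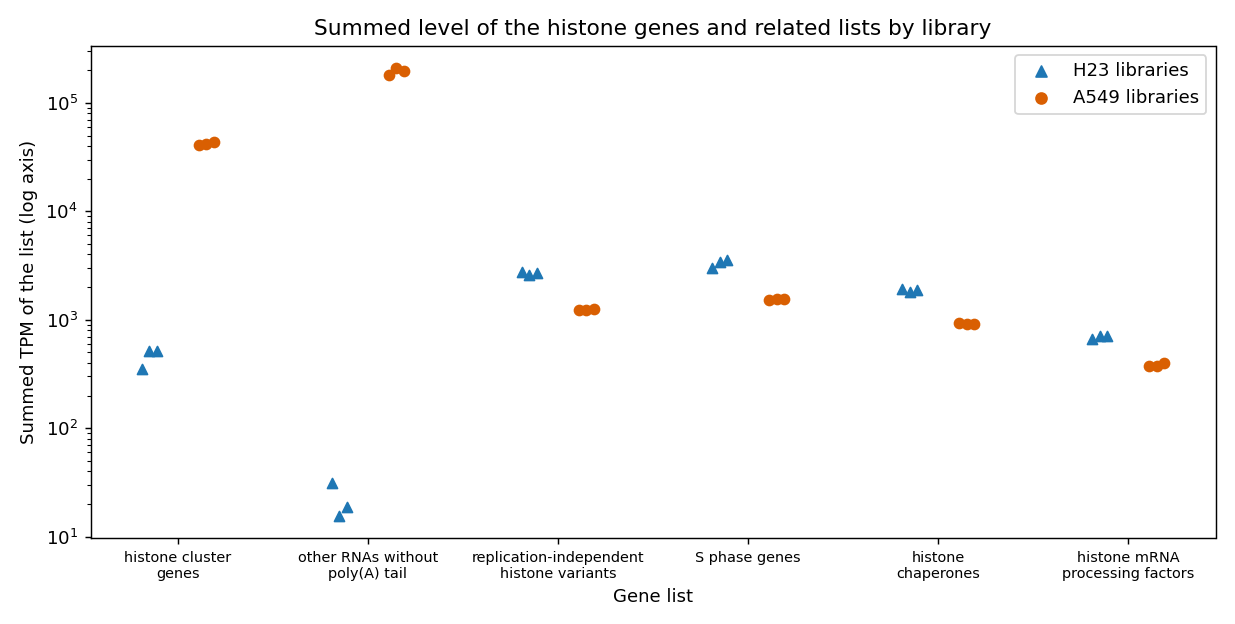
Summed TPM of the histone cluster genes and of 5 related gene lists in each library, on a log axis, with circles for A549 and triangles for H23. The histone genes and the other RNAs without a poly(A) tail are higher in all 3 A549 libraries. On this scale, which the untailed RNAs lower in A549, the other 4 lists are lower there. In CPM, not drawn, the variants, S phase genes and chaperones are also lower in A549, while the processing factors overlap.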

How the data were processed

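The 6 libraries, 3 per line, were grouped by the labels' titles. Per the submitters' processing notes, the tools were STAR 2.6.0c and RSEM 1.3.0, with hg19 as the build. Options, annotation release and strand setting are not given in the sources used here. Per the file headers, RSEM's expected counts were deposited for genes and transcripts. Levels per length are the TPM values as deposited. A transcript's share within its gene is the deposited percent value. The tables hold no coordinates, so positions come from RefSeq GRCh38.p14 and sites from GENCODE 29. All 74 genes matched RefSeq by transcript identifier.

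Rounded expected counts went through edgeR 4.0.16 (R 4.3.3) with filterByExpr, TMM factors and its robust quasi-likelihood F test. P-values were adjusted by Benjamini-Hochberg over all tested genes, and calls were made at 0.05. Each log2 fold sets A549 over H23, and the standard errors are approximate, the absolute fold over the square root of F. Levels in CPM are TMM-normalised. Where H23 had no count, the floor was 3 counts over its 3 libraries. Transcript usage was tested with diffSpliceDGE. Each test was tried on simulated counts, with no result given here, so that trial lends no support. With 3 libraries per line the smallest two-sided p of an exact permutation test is 0.1, and calls therefore come from the model across genes. Alternatives used DESeq2 1.42.0, limma 3.58.1, other scalings and filters, and left out each library.

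The members and gene lists were chosen with earlier results of these data known. The rule for named genes took members with 2 or more transcripts, the 6 largest called folds per direction with at least 5 TPM in the higher line, the highest gene of each class per line and examples without a call. Any other name was chosen with its values in view. A marker of another cell type is not reported here.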

Additional observations from a re-analysis of the deposited data

How the results depend on the processing

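The histone count was stable over the alternatives run: 54 to 60 genes were higher in A549 and 3 to 5 in H23, against 57 and 4. The median log2 fold of the tested histone genes was 9.57 over 62 genes. With no filter beyond 1 count it was 8.93 over 72 genes, and with identical copies added together 9.76 over 59. With limma on log2(TPM + 1) and log2(TPM + 0.1) it was 8.0 and 9.19. It ran from 9.16 to 9.55 when 1 library was left out. No direction reversed for the 26 histone genes and 18 other genes whose folds were recomputed, the latter and 5 of the 26 chosen after seeing the data. Under limma on log2(TPM + 1) the median of all genes moved to -0.41, with 3868 genes higher in A549 and 8334 in H23, against 5801 and 6109. With a pseudocount of 0.1 it moved to -0.54, with 3862 and 8367, and upper quartile factors moved it to -0.16. HIST2H2BC was called lower in A549 under both limma fits, with adjusted p of 0.0192 and 0.0184, in a range of 0.0184 to 0.811 over all alternatives.

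Replicate numbers did not pair the samples: correlations of same-numbered libraries were 0.0824, -0.101 and 0.149. A fit with the replicate number as a block gave 11691 called genes against 11910, and 1251 genes with changed transcript usage against 1945. It left 57 and 4 histone genes called, and the long HIST1H2BD transcript had an adjusted p of 0.0722 with the block and 0.0577 with limma. Usage calls over all genes ran from 1430 to 2313 when 1 library was left out. Depth limits the ratios of genes with 0 to 3 counts in H23, whose fitted folds depend on the prior count.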
